A study of Mus musculus with 24 samples.

Results

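The dorsal root fibres (afferent nerve, AN) and the ventral root fibres (efferent nerve, EN) of 1-week-old (1 W) C57BL/6 mice were compared on 6 of the 24 arrays of the series, 3 for each fibre type, and an array belonged to the comparison when its deposited label gave the stage 1W. All groups shared this strain, and the labels give no drug, mutation or transgene for any of them. The roots came from spinal segments L4-L6, and the series repeats the same 2 fibre types at P0, 3 W and 5 W. According to the methods, 9 mice of both sexes were used at each time point, the arachnoid was peeled away, and the fibres of each group were collected into 1 tube of their own. Each array is therefore a pool of mice, and since the sources describe both 1 tube per group and 3 independent experiments, the p-values below measure the spread between arrays of the series, which may be technical in part. AN replicate 1 and EN replicate 1 shared an array slide, as did the replicates numbered 2 and 3, and AN was compared with EN within these 3 pairs.

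The ventral root carries the axons of motor neurons, whose cell bodies lie in the spinal cord. The dorsal root carries the central branches of sensory neurons, whose cell bodies lie in the dorsal root ganglion next to it. Sensory neurons divide into nociceptors, many of which make the peptides substance P and CGRP, and into mechanoreceptors and proprioceptors with large myelinated axons. Most of the cells in either root are Schwann cells, which in the first postnatal week sort and myelinate large axons and later gather small ones into unmyelinated bundles. Boundary cap cells sit where the roots meet the spinal cord, and on the central side of that border oligodendrocytes and astrocytes take over. A root holds no neuronal cell bodies of its own, so neuronal mRNA in it belongs to axons or to cell bodies taken along at dissection, and the arrays cannot tell these apart. In such bulk tissue, fewer cells of a type and less RNA per cell cannot be told apart either.

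All values below are log2 values of the deposited, quantile-normalized table, given per array in the order of replicates 1, 2 and 3, and a difference is the mean AN minus EN over the 3 pairs ± its standard error from the fit, whose spread is estimated over all 12 AN-EN pairs of the series. Of 56605 gene probes on the array, 33697 were well above background on all 3 AN or all 3 EN arrays, and they carried 22315 gene names, each represented by its tested probe with the highest mean. A gene was called when limma's adjusted p was below 0.05 and the fold change above 2. Among the 22315 genes, 977 (4.38%) were called, 834 (3.74%) of them higher in AN and 143 (0.641%) higher in EN, and the median difference over all tested genes was -0.04. The labels were borne out by sensory markers such as Avil, Calca and Scn10a, which lay higher on every AN array, while the motor neuron markers did not separate the fibres, as described further on.

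The sequences of a few probes and promoters show what the measurements rest on. Each of the following 60-base probes lies in the coding part of a peptide precursor and crosses an intron in the genome, so that it reads spliced mRNA. For neuropeptide Y the capitals mark the codons at which the peptide is cut from its precursor and amidated (mm9 chr6:49773743-49777505, plus strand). For Tac1, the precursor of substance P and neurokinin A, they mark the codons of neurokinin A (mm9 chr6:7507722-7509136, plus strand). For Uts2b, the precursor of the urotensin II-related peptide, they mark the first codons of the released peptide (mm9 chr16:27353816-27361076, minus strand).
Npy: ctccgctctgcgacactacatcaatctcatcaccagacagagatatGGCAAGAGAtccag
Tac1: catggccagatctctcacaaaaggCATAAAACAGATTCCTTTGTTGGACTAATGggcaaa
Uts2b: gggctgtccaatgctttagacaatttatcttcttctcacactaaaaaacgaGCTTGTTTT
The Tac1 probe shown differed by 5.50 ± 0.91 between the fibres (adjusted p = 0.00644), and another Tac1 probe with a higher mean is the one described below.

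Chgb, Scg2 and Pcsk1 encode 2 granins and a prohormone convertase, which fill and serve the dense-core vesicles that carry neuropeptides, and all of them were higher in AN. Their promoters each hold 1 full cyclic AMP response element, TGACGTCA, which is its own reverse complement and is printed in capitals between 20 flanking bases on either side. It lies 72 to 65 bases before the annotated start of Chgb (chr2:132781550-132781597, plus strand), 78 to 71 before that of Pcsk1 (chr13:75089759-75089806, plus strand) and 68 to 61 before that of Scg2 (chr1:79440067-79440114, minus strand), all in RefSeq's GRCm38.p6.
Chgb: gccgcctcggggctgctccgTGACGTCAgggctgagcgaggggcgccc
Pcsk1: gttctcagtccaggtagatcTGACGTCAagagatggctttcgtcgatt
Scg2: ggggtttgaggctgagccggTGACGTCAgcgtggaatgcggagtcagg
The element stood within 250 bases before the start in 14 of the 551 genes higher in AN that the promoter table holds (2.54%), which is close to the 352 of 12598 tested genes (2.79%), and in 0 of the 93 genes higher in EN, while 478 of all 27025 promoters in the table (1.77%) have it. The other 11 genes higher in AN with the element were Bend6, Celf6, Isl2, Kctd8, Mapk10, Otud7a, Pax6, Sh3gl2, Syn1, Tmem59l and Tspyl4. Pcsk1 read 7.35, 7.74 and 7.56 in AN and 2.48, 2.48 and 3.50 in EN, where no array was above background (adjusted p = 0.00271).

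The difference between the fibres was lopsided in size. The 834 genes higher in AN had a median difference of 2.40, with 514 of them over 4-fold, 77 over 16-fold and the largest at 5.52, whereas the 143 genes higher in EN had a median of -1.19 and 4 of them exceeded 4-fold. At any fold change the numbers were alike, with 1391 genes (6.23%) higher in AN and 1457 (6.53%) higher in EN at an adjusted p below 0.05. Among the 834 genes, 304 entered the test through the AN arrays alone, and 168 of these were above background on no EN array, so a difference was built into their selection. Of all 22315 tested genes, 933 entered through the AN arrays alone and 465 through the EN arrays alone. All 834 genes and all 143 genes kept 1 direction in the 3 pairs, and the AN and EN arrays did not overlap for 825 and 132 of them. The genes were called on these same 6 arrays with a 2-fold threshold, so this agreement is largely built in. Over all tested genes, the 3 AN arrays lay above the 3 EN arrays for 13.9% and below them for 12.2%.

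The size differed by pair. The median over the 834 genes was 2.74 in pair 1, 2.28 in pair 2 and 1.98 in pair 3, and their median level was 8.93, 9.02 and 9.15 on the AN arrays against 5.93, 6.51 and 7.02 on the EN arrays. EN replicate 1 was thus lowest and EN replicate 3 highest for these genes, while the AN arrays were close together. For the genes higher in EN the pairs gave -1.30, -1.12 and -1.22. By probes, 1350 (4.01%) were called with all pairs, and 223, 509 and 772 without replicate 1, 2 or 3, of which 127, 341 and 611 were higher in AN, against 1170 with all pairs. Of the 85 called genes named by the selection rule, 22, 42 and 59 kept their call in these fits and none reversed. The spread in this fit is shared by all 12 AN-EN pairs of the series, and the pair of replicate 3 at 3 W stands apart, its AN array having a mean of 14.41 over the general neuronal genes against 11.46 and 11.24 on the other AN arrays of 3 W. Without that pair, an omission chosen after the data were seen, 1562 probes were called at 1 W, and 1146, 1330 and 1440 when replicate 1, 2 or 3 was also left out. The counts given below for each gene group without a replicate come from the fit that keeps the 3 W pair.

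**Figure D1:**
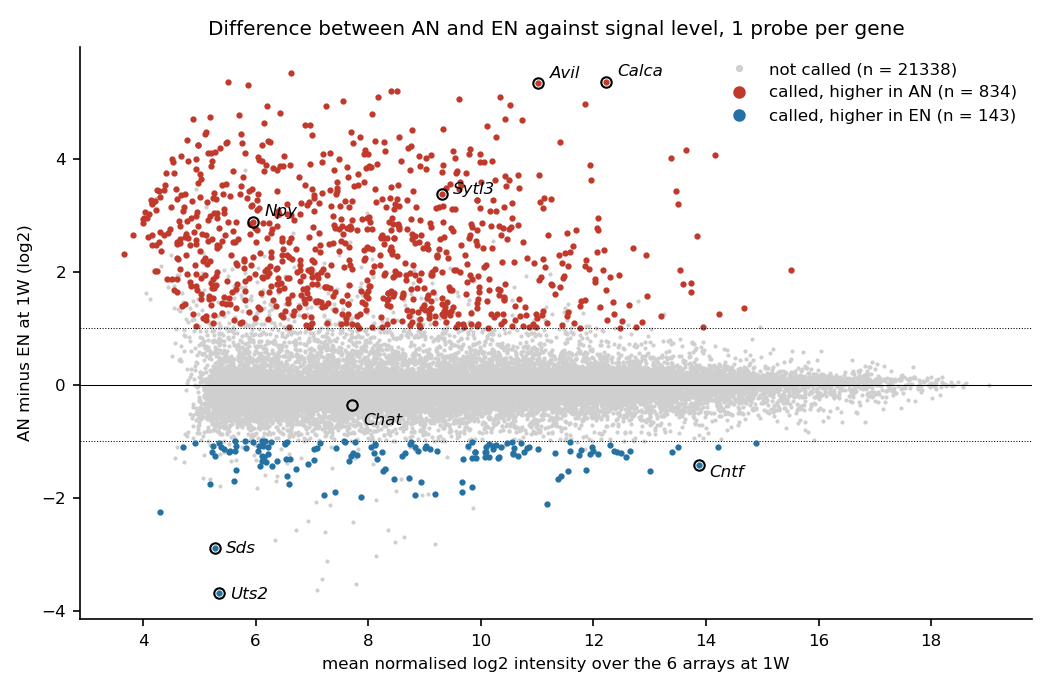
Each point is 1 of the 22315 tested genes, with its mean log2 value over the 6 arrays at 1 W on the horizontal axis and its AN minus EN difference (log2) on the vertical axis. The 834 genes called higher in AN (red) reach 5.52 and spread over all levels, whereas the 143 called higher in EN (blue) mostly lie within 2 log2 units of 0, and the remaining 21338 (grey) were not called. Dotted lines mark a 2-fold change.

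Genes that define sensory neurons were among the largest differences. Avil, which encodes the actin-binding protein advillin of sensory neurons, read 13.49, 13.88 and 13.71 in AN and 7.55, 8.24 and 9.28 in EN. Its AN arrays lay close together and far above every EN array (5.34 ± 0.92, adjusted p = 0.00745, or 40.4-fold). Isl1, a LIM homeodomain factor of sensory and motor neurons, read 8.33, 8.71 and 8.93 in AN and 2.73, 3.09 and 5.37 in EN, where only 1 EN array was above background (4.93 ± 0.97, adjusted p = 0.0115), and its relative Isl2 read 11.83, 12.01 and 12.60 in AN and 6.38, 6.54 and 8.35 in EN (5.06 ± 0.95, adjusted p = 0.00968). Prdm12, a factor needed for nociceptors to form, read 10.79, 11.32 and 10.90 in AN and 4.59, 6.14 and 6.70 in EN (5.19 ± 1.12, adjusted p = 0.0172). Pou4f3, a POU factor of sensory neurons, read 6.39, 7.05 and 6.67 in AN and 2.62, 2.62 and 2.73 in EN. No EN array was above background for it, which gave a nominal lower bound of 3.55-fold higher in AN (adjusted p = 0.0079). The adjusted p beside this and every later bound comes from limma on the deposited values and does not test the bound. Tlx2, a homeobox gene of neural crest neurons, differed by 5.20 ± 0.91 (adjusted p = 0.00754). Prdm12 was not called without replicate 1, 2 or 3 (adjusted p 0.0577 to 0.128), and the other 5 genes were called only without replicate 3.

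Of the list of 18 sensory transcription factor and identity genes, 16 were tested, 8 were higher in AN, none was higher in EN, and the median was 0.87. Besides Avil, Isl1 and Pou4f3 these were Shox2 (3.54 ± 0.69, adjusted p = 0.011), Pou4f2 (3.03 ± 0.74), Hoxd1 (at least 3.12-fold, adjusted p = 0.0296), Runx1 (1.17 ± 0.33, adjusted p = 0.0449) and Klf7, a zinc finger factor of sensory neurons, which read 13.11, 13.30 and 13.40 in AN and 12.10, 12.27 and 12.38 in EN (1.02 ± 0.13, adjusted p = 0.00264). Klf7 had the smallest difference of the 8 and the smallest error. Pou4f1, the pan-sensory POU factor, differed by -0.43 (adjusted p = 0.366) at the probe used, but 2 of its 3 tested probes were called higher in AN, so its probes disagree. Maf, a factor of mechanoreceptors, gave -0.52 (adjusted p = 0.0233). Of the 16 genes 5 had entered the test through AN arrays alone, and 3 were called when all 6 arrays had to be above background. Without replicate 1, 2 or 3, 1, 1 and 5 were called. Klf7 was called each time.

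**Figure D2:**
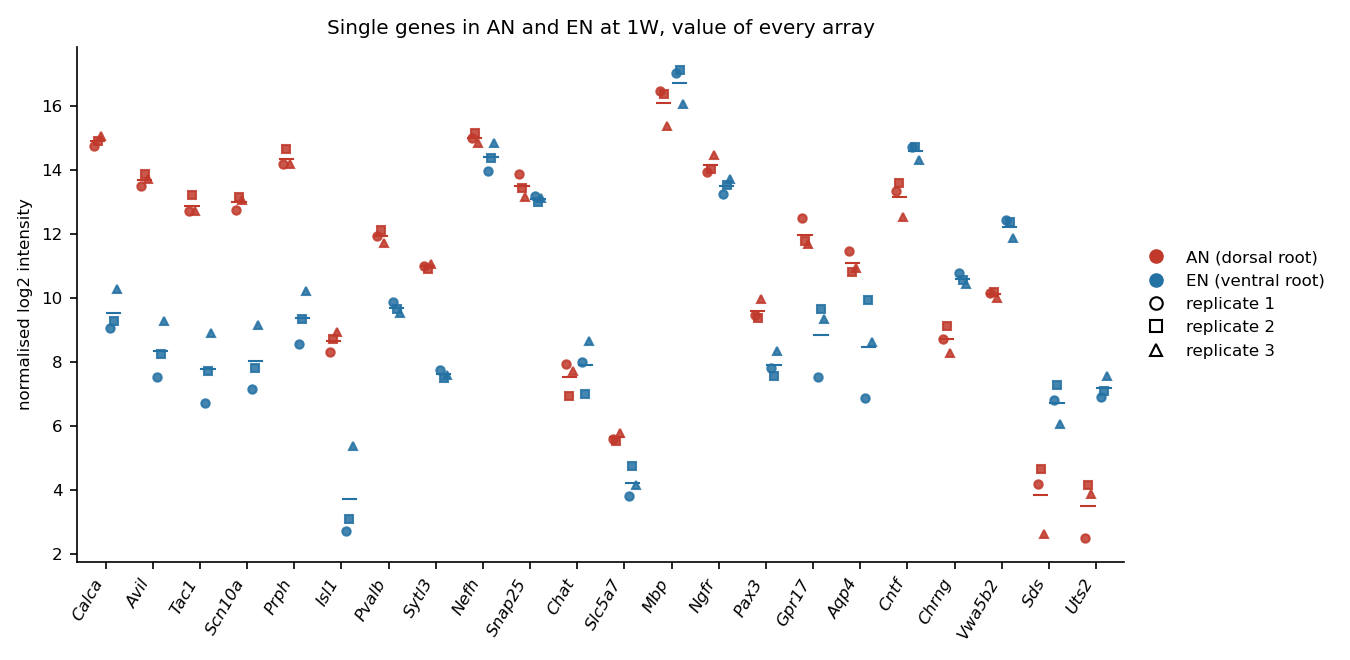
Log2 values of 22 genes on each of the 3 AN and 3 EN arrays at 1 W, 1 column per gene and 1 point per array, the symbol giving the replicate and the short line the mean of 3. The sensory genes on the left, such as Calca, Avil and Scn10a, form separate AN and EN groups, Chat and Snap25 overlap between the fibres, and Vwa5b2, Sds and Uts2 on the right lie higher on the EN arrays.

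Sensory peptides followed the same order. Calca, which encodes CGRP, read 14.76, 14.92 and 15.05 in AN and 9.06, 9.30 and 10.28 in EN (5.36 ± 1.14, adjusted p = 0.016). Tac1 read 12.71, 13.23 and 12.71 in AN and 6.73, 7.73 and 8.91 in EN (5.09 ± 0.90, adjusted p = 0.00774), and the Tac1 probe printed above gave a difference of like size. Calcb, the second CGRP gene, was 4.48 ± 1.11 (adjusted p = 0.0295). Adcyap1, the precursor of PACAP, read 9.62, 9.99 and 9.97 in AN and 4.78, 5.25 and 6.74 in EN (4.27 ± 0.53, adjusted p = 0.00215). In each of these the lowest AN array stood at least 2 log2 units above the highest EN array. Leaving out any 1 replicate ended the calls of Calca and Calcb, whose adjusted p reached 0.11 and 0.154, Tac1 was called without replicate 3, and Adcyap1 without each.

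Of 16 tested peptide genes of the sensory list, 8 were higher in AN, with a median of 1.71. Npy read 7.73, 6.57 and 7.89 in AN and 3.47, 4.14 and 5.94 in EN, and 1 EN array was above background (2.88 ± 0.40, adjusted p = 0.00353). The AN values of Npy spread more than those of the other peptides and EN replicate 3 came closest to them. Nmb, the precursor of neuromedin B, read 11.93, 12.22 and 11.94 in AN and 10.14, 10.18 and 10.03 in EN (1.91 ± 0.34, adjusted p = 0.00804), while Tac2, the neurokinin B precursor, differed by 2.54 and Pdyn, the dynorphin precursor, by 1.73. The members not called ranged from 1.69 for Cartpt through 1.12 for galanin to -0.88 for Grp. Sst, the somatostatin precursor, gave 0.49 here and 3.39 at 5 W, and Penk, the enkephalin precursor, gave -0.26 and 3.02. The calls numbered 5 when all 6 arrays had to be above background, and 2, 2 and 4 without replicate 1, 2 or 3.

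Of 18 tested channels and receptors of nociceptors and thermoreceptors, 10 were higher in AN, and the median of 2.84 was among the largest of the 36 lists. Mrgprd, a receptor of non-peptidergic nociceptors, read 10.37, 10.94 and 10.85 in AN and 4.35, 5.76 and 6.75 in EN (5.10 ± 1.21, adjusted p = 0.0249). Scn10a, the sodium channel Nav1.8, read 12.74, 13.15 and 13.07 in AN and 7.16, 7.80 and 9.16 in EN (4.95 ± 1.04, adjusted p = 0.0149), and Scn11a, Nav1.9, differed by 4.58 ± 0.89 (adjusted p = 0.011). Both channels were higher on every AN array. The serotonin-gated channel Htr3a (at least 11.3-fold) and the itch receptor Mrgpra3 (at least 8.42-fold), were above background on no EN array. The acid-sensing channels Asic3 (4.19) and Asic1 (2.88), the prostacyclin receptor Ptgir (3.91), the protease-activated receptor gene F2rl2 (3.84) and the heat- and capsaicin-gated channel Trpv1 (2.80 ± 0.53, adjusted p = 0.00978) were also called.

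The other thermal and chemical sensors were not called, with differences of 1.37 for Trpa1 (adjusted p = 0.226), 0.41 for the cold channel Trpm8, 0.44 for the ATP receptor P2rx3 and 0.29 for the mu opioid receptor Oprm1, although 1 of 3 probes of P2rx3 and 1 of 3 of Oprm1 were called higher in AN. Of the 18, 8 had entered the test through AN alone, and 4 were called when all 6 arrays had to be above background. The calls were 0, 0 and 7 without replicate 1, 2 or 3. Without the pair of replicate 3 at 3 W 11 were called.

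Genes of large sensory neurons were also higher in AN in part. Pvalb, the calcium-binding protein of proprioceptors, read 11.96, 12.13 and 11.73 in AN and 9.88, 9.68 and 9.52 in EN (2.24 ± 0.50, adjusted p = 0.0192). Piezo2, the mechanically gated channel of touch receptors, read 12.65, 12.97 and 12.83 in AN and 11.26, 11.57 and 11.47 in EN (1.38 ± 0.31, adjusted p = 0.0197). The AN and EN arrays of both genes were well apart, with little spread within a fibre. Of 12 tested mechanoreceptor and proprioceptor genes 6 were higher in AN (median 1.25), the others being the calcium-binding protein gene Calb1 (3.19), the channel Asic2 (3.15), Nxph1 (2.24) and Necab2 (1.32). The list had 0, 0 and 3 calls when replicate 1, 2 or 3 was left out. Pvalb also stands in the list of skeletal muscle genes, where none of the other 13 tested members was called.

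Among receptors of neurotrophic factors, Ret, the receptor shared by GDNF-family ligands, read 10.94, 11.39 and 11.33 in AN and 7.64, 7.63 and 7.75 in EN (3.55 ± 0.68, adjusted p = 0.0105). Its coreceptors Gfra3, for artemin, and Gfra2, for neurturin, differed by 2.47 ± 0.40 (adjusted p = 0.0058) and 1.01 ± 0.11 (adjusted p = 0.00124). The list had 4 called members of 15, all higher in AN, with a median of 0.65. Ntrk3, the neurotrophin-3 receptor of proprioceptors, gave 0.91, Ntrk2 0.53, the low-affinity receptor Ngfr 0.65 (adjusted p = 0.195) and the GDNF coreceptor Gfra1 -0.76, none of them called. Without replicate 1, 2 or 3, 0, 1 and 2 of the 15 were called by the combined criterion, and Gfra2, which lay just past a 2-fold change, had an adjusted p of 0.0207, 0.0147 and 0.00827 in these fits.

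The ligands split. Bdnf, made by sensory neurons, read 7.47, 8.02 and 7.54 in AN and 5.09, 5.18 and 5.58 in EN (2.39 ± 0.56, adjusted p = 0.0234). Cntf, a factor of myelinating Schwann cells that acts on motor neurons, ran the other way and read 13.34, 13.59 and 12.54 in AN and 14.71, 14.73 and 14.31 in EN (-1.43 ± 0.12, adjusted p = 0.000499). Every AN array of Bdnf was above every EN array, and every EN array of Cntf was above every AN array. These were the called members of 14 tested ligands (median -0.34), 1 in each direction. Cntf was called without each replicate, and Bdnf was not called without replicate 1, 2 or 3 (adjusted p 0.0738 to 0.126). Vegfa gave -0.48 and Ntf3 1.95 (adjusted p = 0.142).

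General neuronal genes had the largest share of called members among the 36 lists, with 21 of 24 higher in AN and a median of 2.96. Prph, the intermediate filament peripherin of small sensory and motor neurons, read 14.19, 14.64 and 14.19 in AN and 8.57, 9.34 and 10.21 in EN (4.97 ± 0.91, adjusted p = 0.00891). Nefl, the light neurofilament, read 16.06, 16.35 and 16.17 in AN and 11.35, 11.86 and 13.16 in EN (4.07 ± 0.92, adjusted p = 0.0207), and Scg2 read 11.83, 12.04 and 11.79 in AN and 6.79, 7.60 and 8.78 in EN (4.16 ± 0.66, adjusted p = 0.00558). On the EN arrays replicate 1 was lowest and replicate 3 highest for each of these, and no EN array reached an AN array. The medium neurofilament Nefm (4.16), the microtubule regulator Stmn2 (4.02), the neuronal splicing factor Rbfox3 (3.94), neuronal tubulin Tubb3 (3.62), Chgb (3.08), the growth cone protein Gap43 (2.73), Mapt (1.95 ± 0.23, called at all 5 of its probes) and Map1b (1.35) were called as well. Uchl1, a ubiquitin hydrolase of neurons, read 16.49, 16.67 and 16.42 in AN and 14.45, 14.50 and 14.53 in EN (2.03 ± 0.58, adjusted p = 0.046).

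Nefh, the heavy neurofilament of large axons, differed from the rest of this list. It read 14.99, 15.15 and 14.85 in AN and 13.98, 14.37 and 14.84 in EN, a difference of 0.60 (95% interval -1.29 to 2.49, adjusted p = 0.684), and EN replicate 3 all but reached AN replicate 3. Sncg, gamma-synuclein, gave 0.21, and Elavl4, a neuronal RNA-binding protein, gave 1.83 (adjusted p = 0.0724) with 2 of its 3 probes called. Of the 24 genes, 2, 5 and 14 were called without replicate 1, 2 or 3, and 22 without the pair of replicate 3 at 3 W.

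**Figure D3:**
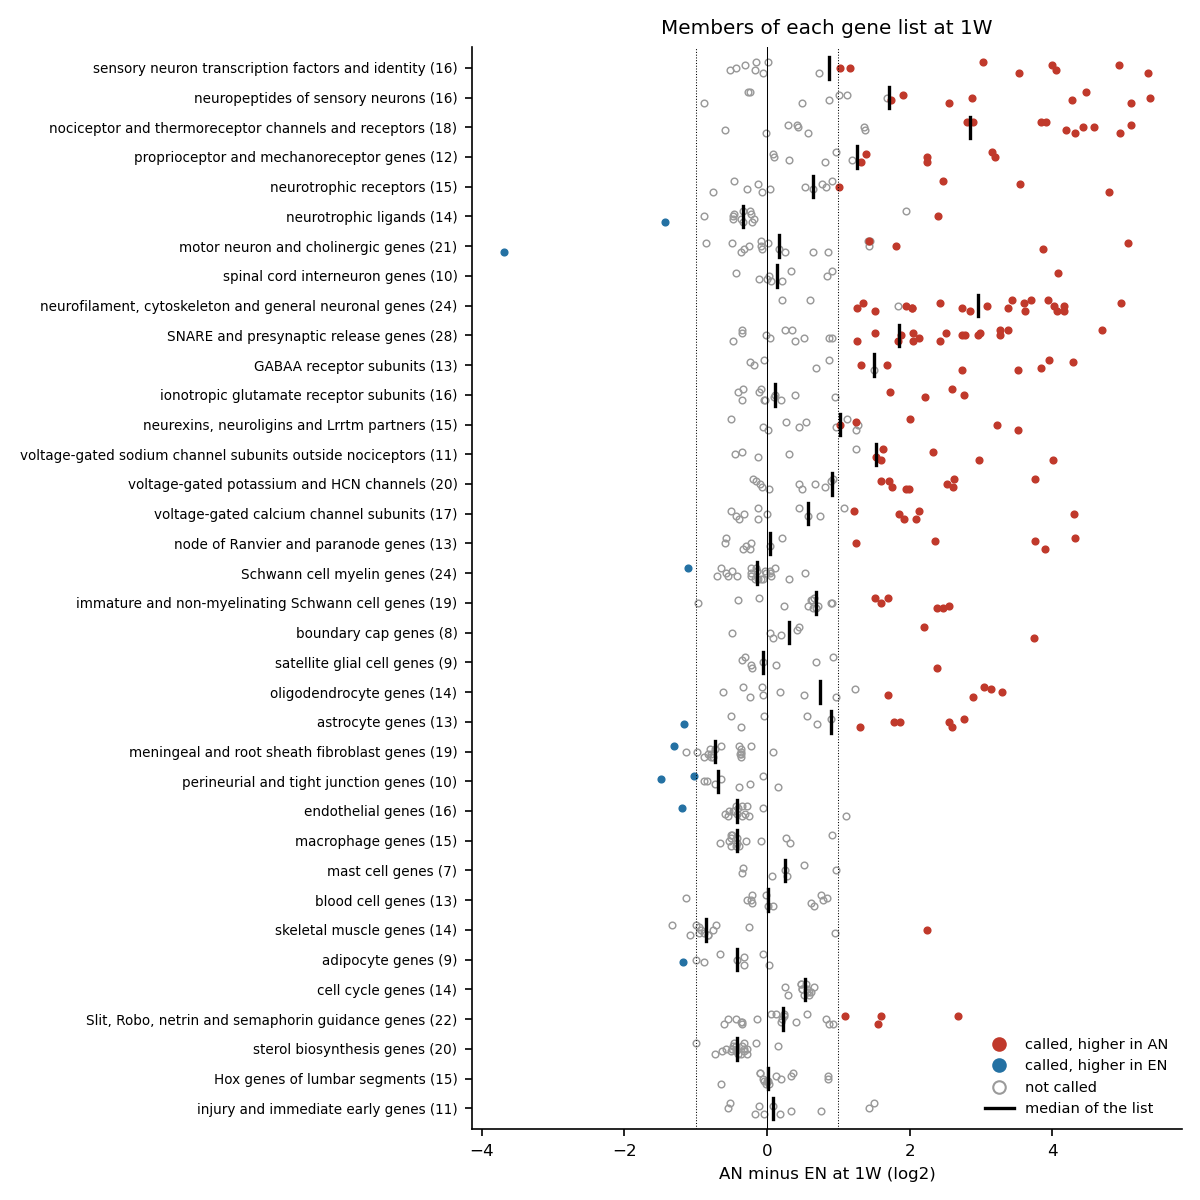
AN minus EN difference (log2) at 1 W of every tested member of the 36 gene lists, 1 row per list and 1 point per gene, filled where called, with a short line at the median of each list, 0 marking no difference and dotted lines a 2-fold change. The neuronal list (median 2.96) and the nociceptor list (2.84) lie farthest to the right, and the meningeal (-0.74), perineurial (-0.69) and skeletal muscle (-0.85) lists lie left of 0.

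Presynaptic genes were higher in AN for 17 of 28 tested members (median 1.85). Cplx1, a complexin that clamps vesicle fusion, read 13.00, 13.07 and 13.14 in AN and 7.46, 8.40 and 9.30 in EN (4.69 ± 0.70, adjusted p = 0.00443). Sytl3, a Rab27-binding protein of secretory granules, read 11.00, 10.90 and 11.06 in AN and 7.76, 7.50 and 7.60 in EN (3.37 ± 0.27, adjusted p = 0.000379), with both fibres tightly grouped and all 4 of its probes called. Synaptotagmin genes Syt1 (3.27) and Syt7 (at least 3.49-fold), the synapsins Syn2 (3.26) and Syn1 (2.96), the vesicle protein Sv2c (2.77), and the active zone protein Erc2 (2.73) were called. Snap25, the SNARE protein of the plasma membrane, read 13.89, 13.43 and 13.17 in AN and 13.19, 13.01 and 13.13 in EN (0.39, adjusted p = 0.351), with AN replicate 3 overlapping the EN arrays, although 1 of its 3 probes was called. Unc13c, a vesicle priming factor, gave 0.91 (adjusted p = 0.0137), short of 2-fold at this probe, with another called. Vamp2 (0.35), synaptophysin Syp (0.52) and Pclo (-0.48) were not called. The list counted 1, 8 and 8 calls without replicate 1, 2 or 3.

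GABAA receptor subunits were higher in AN for 7 of 13 tested members (median 1.49). Gabrg1 differed by 3.84 (adjusted p = 0.00895), Gabrb1 by 2.74, Gabrb2 by 1.32 and Gabra2 by 1.69, the last called at all 4 probes. Gabrg3 (1.49, adjusted p = 0.111), Gabra3 (0.86), Gabra4 (0.68) and Gabra5 (-0.25) were not called. Of the 13, 5 had entered the test through AN alone, and 2 were called when all 6 arrays had to be above background. The calls were 0, 2 and 5 without replicate 1, 2 or 3.

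Ionotropic glutamate receptor genes gave 4 called of 16 (median 0.10), all higher in AN. They were the kainate subunits Grik3 (2.76 ± 0.29, adjusted p = 0.00117) and Grik4 (2.60) and the NMDA subunits Grin3a (2.21) and Grin1 (1.73). The synaptic adhesion list gave 5 of 15 (median 1.02). Nrxn3, a presynaptic neurexin, read 9.54, 9.57 and 9.34 in AN and 6.86, 7.30 and 8.27 in EN (2.01 ± 0.48, adjusted p = 0.0259), the neurexin ligand Cbln2 differed by 3.22, Clstn3 by 1.24 and Lrrtm1 by 1.02 ± 0.09 (adjusted p = 0.000528). Nrxn2 (1.27, adjusted p = 0.07), Nlgn1 (0.96, adjusted p = 0.0327) and Nlgn3 (0.01) were not called. The glutamate list had 1, 2 and 3 calls without replicate 1, 2 or 3, and the adhesion list also 1, 2 and 3.

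Ion channels outside the nociceptor list were higher in AN in part. Of 11 sodium channel subunits 6 were called (median 1.52), among them Scn4b (4.01), Scn1a, a channel of large sensory neurons (2.98) and the sodium sensor Scn7a, which read 7.33, 7.43 and 7.54 in AN and 5.86, 5.70 and 5.97 in EN (1.59 ± 0.16, adjusted p = 0.00103). Scn8a, the channel of mature nodes, gave -0.45. Of 20 potassium and HCN channels 9 were called (median 0.91). They included the fast-firing channels Kcnc4 (2.61) and Kcnc2 (at least 2.26-fold), Kcnd2 (1.95) and the pacemaker channel Hcn3 (1.75). Kcna6 gave 0.81 (adjusted p = 0.000827), under 2-fold here against 1.98 at 3 W and 2.15 at 5 W. Of 17 calcium channel subunits 6 were called (median 0.57), including Cacng5 (at least 6.76-fold), Cacnb4 (2.13), the auxiliary subunit Cacna2d3 (2.08) and the N-type channel Cacna1b (1.85). Leaving out replicate 1, 2 or 3, the sodium list had 1, 2 and 4 calls, the potassium list 1, 3 and 4, and the calcium list 0, 1 and 2.

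Of the node and paranode genes, 5 of 13 tested were higher in AN (median 0.05). Cntnap2, the axonal protein that places potassium channels beside the paranode, read 10.17, 10.45 and 10.20 in AN and 5.03, 5.47 and 7.36 in EN (4.32 ± 0.72, adjusted p = 0.00658), and its partner Cntn2 differed by 3.89, Cntn1 by 2.35 and Cntnap1 by 1.24. Ank3, the scaffold ankyrin G, gave 0.20, the adhesion molecule Nfasc -0.34 and Gldn, a Schwann cell protein that gathers channels at the node, -0.30, against -1.51 for Gldn at P0, and none of these was called at 1 W. The list had 1, 2 and 4 calls without replicate 1, 2 or 3.

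Outside the lists, the largest differences included genes measured in AN alone, namely Kctd8, an auxiliary subunit of GABAB receptors (at least 12.4-fold), the zinc finger gene Insm2 (at least 12.1-fold), the adhesion molecule Cntnap4 (at least 10.3-fold), Trappc3l (at least 9.89-fold) and the orphan receptor Adgrg2 (at least 9.29-fold). Tmem45b (5.02) and Fam43b (4.94) were called on measured EN values. Slc17a6, the vesicular glutamate transporter of sensory and spinal neurons, differed by 4.08 ± 0.58 (adjusted p = 0.00378) and was the called member of 10 tested genes listed for spinal interneurons (median 0.13). Slc17a6 and Cntnap4 were called without each replicate, Adgrg2 without replicates 2 and 3, Kctd8, Tmem45b and Fam43b without replicate 3, and the calls of Insm2 and Trappc3l ended in each case.

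The same 834 genes were followed at the other ages, whose arrays entered their choice through the shared estimate of spread but not through the difference at 1 W. Their median level was 8.82 in AN and 8.55 in EN at P0, 9.05 and 6.44 at 1 W, 8.47 and 6.70 at 3 W, and 8.00 and 6.42 at 5 W. The AN level at 1 W was thus near that of P0, while the EN level at 1 W lay more than 2 log2 units below. All arrays of 3 W were on 1 slide that held no array of P0 or 1 W. Levels of a fibre at different ages, here and below, can therefore also differ by slide. The 834 genes were chosen for being higher in AN at 1 W, and 304 entered the test through AN alone. The gap between the fibres at 1 W is therefore partly built in. The median difference was 0.26 at P0, 1.76 at 3 W and 1.32 at 5 W. Of these genes 7 were called higher in AN at P0, 479 at 3 W and 363 at 5 W, against 20 (0.0896%), 795 (3.56%) and 813 (3.64%) of all tested genes, and 0, 1 and 6 were called in the other direction. The general neuronal list had means of 13.07, 13.96 and 12.77 in AN and 12.78, 13.16 and 13.25 in EN at P0, and of 13.28, 13.38 and 13.42 in AN and 9.99, 10.49 and 11.23 in EN at 1 W. At 1 W all EN arrays lay below all AN arrays of either age, and at P0 the fibres overlapped. On the EN arrays of 3 W the means were 10.58, 10.38 and 10.78, and on the AN arrays of 5 W 12.06, 12.44 and 10.55.

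The test of this shift, the difference at 1 W minus that at P0, called 111 of the 22315 genes (0.497%), of which 37 were among the 834 and 22 among the 143. The test contains the same difference at 1 W by which those genes were chosen, so this overlap is partly built in. Adcyap1 differed by 0.39 at P0 and 4.27 at 1 W (change 3.88, adjusted p = 0.0496). Cpne4, a calcium-dependent membrane-binding copine, read 8.20, 8.60 and 9.73 in AN and 2.76, 3.54 and 5.81 in EN, a difference of 4.81 that was 0.32 at P0 (adjusted p = 0.0208), and Cntnap4 went from 0.53 to 4.24. The Cpne4 values of EN replicates 1 and 2 lay under the lowest values marked above background on those arrays (4.78 and 4.62). Cntnap4 was above background on no EN array at 1 W, so the sizes of both changes are uncertain. For most of the 834 genes the change from P0 did not reach the threshold, which does not show that it was absent. Slit2, a secreted guidance factor, was higher in AN at P0 (1.30) and gave -0.43 at 1 W (change -1.74, adjusted p = 0.00542). By probes this test called 156 (0.463%), and 16, 19 and 51 without replicate 1, 2 or 3 of 1 W. It called 22 without the pairing, and 923 without the pair of replicate 3 at 3 W.

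For Sybu and Strip2 the difference at 1 W exceeded that at each other age. Sybu, syntabulin, which links vesicles to kinesin for axonal transport, read 8.93, 9.22 and 9.54 in AN and 5.16, 6.24 and 6.84 in EN (3.15 ± 0.36), whereas the difference was 0.36 at P0, -0.85 at 3 W and -1.18 at 5 W. Each of these comparisons with 1 W was called (adjusted p = 0.0421, 0.0172 and 0.00721), and at 5 W Sybu was itself called higher in EN (adjusted p = 0.0363). Its AN means were 9.39, 9.23, 9.39 and 9.33 from P0 to 5 W and its EN means 9.03, 6.08, 10.24 and 10.51, so that EN was lowest at 1 W and the AN means lay close together. Strip2, a subunit of a phosphatase complex, likewise had its lowest EN mean at 1 W (5.13, against 7.16, 7.15 and 7.35), with differences of 2.27 at 1 W against 0.02, -0.16 and -0.52, all 3 tests being called. Zdhhc2, a palmitoyl transferase, gave 2.28 against 0.48, -1.12 and -1.57, called against 3 W and 5 W. In the other direction, Met, the hepatocyte growth factor receptor, gave -0.13 at 1 W and 1.98 at 5 W, and Hpcal4, a neuronal calcium sensor, 0.83 and 3.49. Against 3 W, 50 genes (0.224%) were called and against 5 W 377 (1.69%). By probes the count against 3 W was 67 (0.199%), and 0, 3 and 13 without replicate 1, 2 or 3, and that against 5 W was 561 (1.66%), and 114, 94 and 135.

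**Figure D4:**
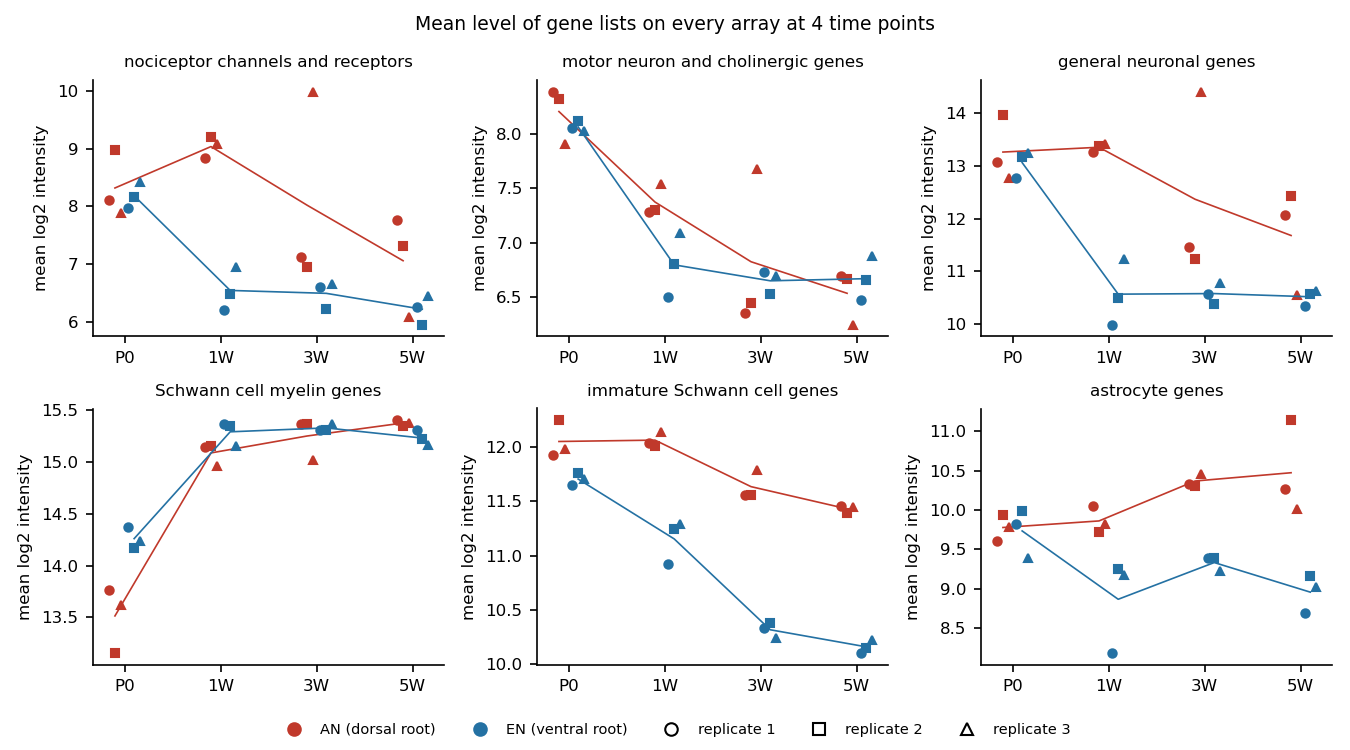
Mean log2 value of 6 gene lists on each array at the 4 ages, 1 panel per list and 1 point per array, with AN in red, EN in blue, the symbol giving the replicate and lines joining the group means. In the general neuronal panel the fibres overlap at P0 (12.77 to 13.96 in AN, 12.78 to 13.25 in EN) and separate at 1 W (13.28 to 13.42 against 9.99 to 11.23), and 1 AN array of 3 W stands at 14.41.

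**Figure D5:**
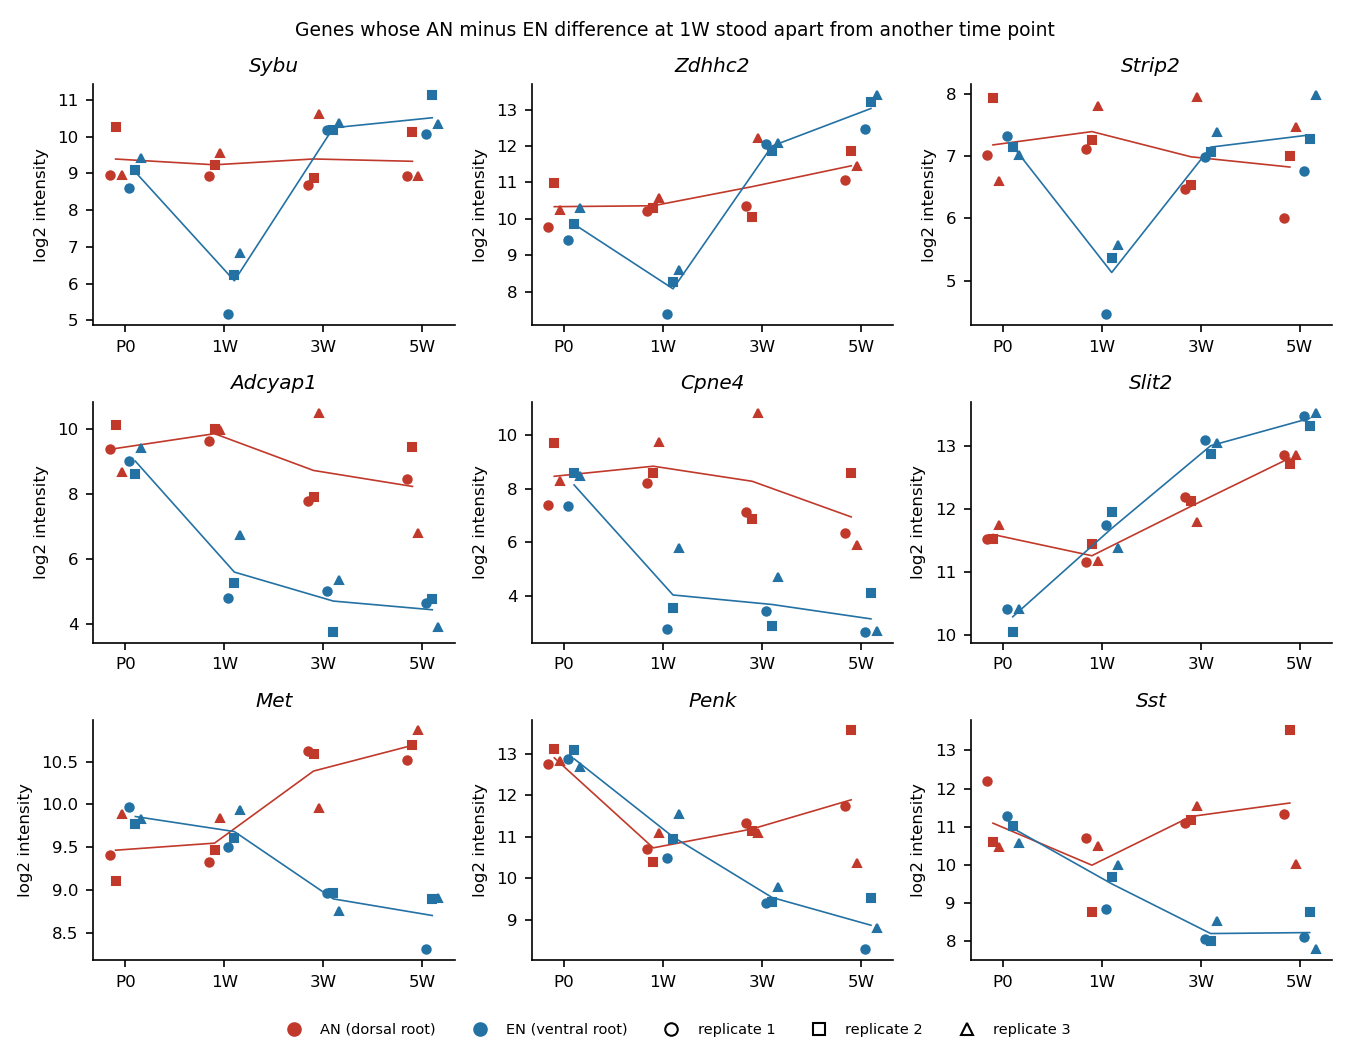
Log2 values of 9 genes on each array at the 4 ages, 1 panel per gene, with AN in red, EN in blue and lines joining the group means. Sybu, Zdhhc2 and Strip2 lie higher in AN at 1 W but not at 5 W, Adcyap1 and Cpne4 overlap between the fibres at P0 and separate from 1 W on, and Met, Penk and Sst have small differences at 1 W and larger ones at 5 W.

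Genes higher in EN were fewer and their differences smaller. Uts2, the precursor of urotensin II, a peptide of spinal motor neurons, read 2.49, 4.17 and 3.87 in AN and 6.91, 7.11 and 7.57 in EN, with 1 AN array above background (-3.68 ± 0.65, adjusted p = 0.00758). Sds, serine dehydratase, read 4.19, 4.67 and 2.64 in AN and 6.81, 7.28 and 6.06 in EN, also with 1 AN array above background (-2.88 ± 0.21, adjusted p = 0.000344). Vwa5b2, a protein with a von Willebrand factor A domain, read 10.17, 10.19 and 10.00 in AN and 12.44, 12.37 and 11.87 in EN (-2.10 ± 0.17, adjusted p = 0.000445), and every array of both fibres was above background. In all of these the EN arrays lay above all AN arrays. Chrng, the fetal gamma subunit of the muscle-type acetylcholine receptor, read 8.73, 9.13 and 8.28 in AN and 10.80, 10.57 and 10.44 in EN (-1.89 ± 0.27, adjusted p = 0.00384), with a difference of -2.04 at P0.

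Further called genes were the spectrin gene Sptbn5 (-1.96), the keratin Krt23 (-1.93), the ligand Wnt2 (-1.90), the secreted protein Angptl7 (-1.76), the transcription factor Helt (-1.75, 1 AN array above background), the cadherin Cdh3 (-1.73), Lctl (-1.71) and Scube1 (-1.66). Pgc, a pepsinogen gene (at least 1.93-fold), and the DNA sensor Aim2 (at least 1.84-fold) were above background on no AN array. For the 143 genes the median level was 7.10 in AN and 7.82 in EN at P0, 7.90 and 9.27 at 1 W, 8.51 and 9.51 at 3 W, and 8.92 and 9.69 at 5 W. Both fibres thus had higher values at later ages, and the median difference was -0.37 at P0, -0.91 at 3 W and -0.86 at 5 W. Of the 143, 16, 61 and 48 were called higher in EN at P0, 3 W and 5 W, against 115 (0.515%), 306 (1.37%) and 257 (1.15%) of all tested genes. Sds differed by -0.23 at P0, and its change to 1 W was -2.65 (adjusted p = 0.00958). Without replicate 1, Uts2 (adjusted p = 0.0758), Wnt2 (0.0616), Angptl7 (0.0526) and Pgc (0.0502) were no longer called, and Aim2 was not called without any 1 of the replicates (adjusted p 0.0736 to 0.214), while the other EN genes named here were called each time.

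Genes of motor neurons and cholinergic transmission did not as a group lie higher in the motor root. Of 21 tested, 4 were higher in AN and 1 (Uts2) in EN, with a median of 0.16. Chat, which makes acetylcholine, read 7.94, 6.93 and 7.72 in AN and 8.00, 7.02 and 8.67 in EN (-0.37, 95% interval -0.81 to 0.08, adjusted p = 0.257), the vesicular acetylcholine transporter Slc18a3 gave -0.25 (adjusted p = 0.741) and the choline transporter Slc5a7 read 5.61, 5.54 and 5.80 in AN and 3.81, 4.74 and 4.17 in EN (1.41, adjusted p = 0.357). The fibres overlapped for Chat. Those higher in AN were Isl2, acetylcholinesterase Ache (3.87 ± 0.70, adjusted p = 0.00849), the nicotinic receptor subunit Chrna4 (1.42) and Uts2b, which read 5.81, 6.34 and 6.21 in AN and 3.94, 4.73 and 4.25 in EN and was above background on no EN array (at least 2.3-fold, adjusted p = 0.0484). At 5 W Uts2b differed by -2.58, and the change between 1 W and 5 W was called (4.39, adjusted p = 0.0157). Chodl, chondrolectin of fast motor neurons, gave 1.44 (adjusted p = 0.071). Mnx1, the defining homeobox gene of motor neurons, was not among the tested genes. Of the 21, 0, 2 and 3 were called without replicate 1, 2 or 3. When all 6 arrays had to be above background, 1 was called, higher in AN.

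Differences of the Schwann cell myelin genes ranged from -1.10 to 0.54. Pmp22, a membrane protein of compact myelin, read 18.37, 18.39 and 18.34 in AN and 18.43, 18.39 and 18.34 in EN (-0.02, 95% interval -0.22 to 0.18). Quantile normalization sets each value by the rank of its probe on the array, so this interval does not show equal amounts of transcript. Mbp read 16.48, 16.39 and 15.38 in AN and 17.02, 17.11 and 16.07 in EN (-0.65, adjusted p = 0.0117), lower in AN within each pair but under 2-fold. Of 24 tested genes, 1 passed, the lipid-binding Pmp2, which read 13.01, 12.98 and 12.86 in AN and 14.07, 14.05 and 14.03 in EN (-1.10 ± 0.16, adjusted p = 0.00437) and had differed by -1.89 at P0. Its AN and EN arrays were each within 0.2 of one another. The median of the list was -0.14 at 1 W and -0.70 at P0, where 9 of the 24 were called higher in EN. At an adjusted p below 0.05 and any fold change, 1 gene was higher in AN and 6 in EN at 1 W, including Drp2 (-0.70) and the galactolipid enzyme Ugt8a (-0.58). Pmp2 was called without each replicate.

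Genes of immature and non-myelinating Schwann cells were higher in AN for 6 of 19 (median 0.68). At an adjusted p below 0.05 and any fold change, 13 were higher in AN against 2 in the other direction. Pax3, a factor of immature Schwann cells, read 9.47, 9.37 and 9.99 in AN and 7.81, 7.56 and 8.36 in EN (1.70 ± 0.13, adjusted p = 0.000379). Fabp7, a lipid-binding protein of glial precursors and satellite cells, read 13.62, 13.09 and 13.43 in AN and 10.16, 11.44 and 11.37 in EN (2.39 ± 0.46, adjusted p = 0.0109). L1cam, the adhesion molecule of unmyelinated fibres, differed by 1.51 ± 0.20, and Gfap, the filament of non-myelinating Schwann cells and of astrocytes, read 11.56, 10.63 and 11.37 in AN and 7.07, 10.18 and 8.66 in EN (2.55 ± 0.58, adjusted p = 0.0207), with EN replicate 1 the lowest. Ncam1 read 13.06, 13.06 and 13.24 in AN and 12.04, 12.23 and 12.42 in EN (0.89 ± 0.08, adjusted p = 0.000632), just under 2-fold, and Erbb3, the neuregulin receptor, gave 0.62, Sox2 0.63 and Id2 0.65. S100b, a marker of maturing Schwann cells, gave -0.97 (adjusted p = 0.000551). The median was 0.33 at P0, 1.32 at 3 W and 1.29 at 5 W, and 3, 6 and 6 genes were called higher in AN without replicate 1, 2 or 3, with 1 called higher in EN without replicate 2. The other called members, Gfra3 and Scn7a, are given above with the receptors and channels. L1cam and Gfap are also made by neurons or astrocytes, and the part of those cells in the differences was not tested.

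Of 9 tested genes of satellite glial cells, which wrap sensory cell bodies in the ganglion, Fabp7 was the called member and the median was -0.06, with list means of 11.82 to 12.06 in AN and 11.37 to 11.83 in EN. Boundary cap genes gave 2 of 8, both higher in AN (median 0.30). Prss56, a protease of boundary cap cells, read 6.99, 6.26 and 7.40 in AN and 3.13, 2.52 and 3.79 in EN. It was above background on no EN array and at least 4.01-fold higher in AN (adjusted p = 0.00206), with a difference of 3.73 at P0 and 0.35 at 5 W, and the change to 5 W was called (adjusted p = 0.024). Hey2 differed by 2.19, and Sema3g gave 0.45. Without replicate 1, 2 or 3, 0, 1 and 2 satellite cell genes and 1, 1 and 1 boundary cap genes were called.

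Some genes of central glia were higher in AN, unevenly across the pairs. Gpr17, a receptor of oligodendrocytes that are about to myelinate, read 12.49, 11.77 and 11.70 in AN and 7.53, 9.66 and 9.36 in EN (3.14 ± 0.47, adjusted p = 0.00456). Olig2, the lineage factor, read 7.31, 6.63 and 6.74 in AN and 3.08, 4.99 and 2.72 in EN (3.30 ± 0.79, adjusted p = 0.0258), Olig1 differed by 2.89, Nkx2-2 was at least 3.74-fold higher in AN (adjusted p = 0.000344) and Enpp6, an enzyme of new oligodendrocytes, differed by 1.70. These were 5 of 14 (median 0.74), while the mature myelin genes Mobp (1.23, adjusted p = 0.28) and Mog (-0.06) were not called. Aqp4, the water channel of astrocyte endfeet, read 11.48, 10.83 and 10.95 in AN and 6.88, 9.95 and 8.63 in EN (2.60 ± 0.53, adjusted p = 0.0136), and Mlc1, its neighbour in endfoot membranes, read 12.30, 11.64 and 11.68 in AN and 7.38, 10.53 and 9.45 in EN (2.76 ± 0.58, adjusted p = 0.0151). For all of these but Olig2 EN replicate 1 was the lowest array, and EN replicate 2 the highest. The Olig2 values of EN replicates 1 and 3 lay under the lowest values marked above background on those arrays (4.78 and 5.23).

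Of 13 astrocyte genes 6 were higher in AN and 1, the connexin Gjb6 (-1.17), in EN (median 0.90), Hes5 (2.55), Slc1a2 (1.78), Fgfr3 (1.30) and Slc6a11 (at least 1.49-fold) being the remaining ones. In pair 1 the medians were 1.70 for the oligodendrocyte and 1.84 for the astrocyte list, against 0.09 and 0.32, and 0.45 and 0.41, in pairs 2 and 3. List means ran from 10.14 to 10.65 in AN and 8.75 to 9.68 in EN for oligodendrocytes, and from 9.72 to 10.04 and 8.18 to 9.25 for astrocytes. Without replicate 1, 2 or 3, 2, 4 and 2 oligodendrocyte genes and 1, 5 and 4 astrocyte genes were called. How much central tissue each pool held was not tested.

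Sheath and vessel genes had negative medians and few calls. Of 19 meningeal genes, 1 was called, the transporter Slc22a2 (-1.31, higher in EN), and 11 were lower in AN at an adjusted p below 0.05 and any fold change. The median was -0.74, with Foxd1 at -0.99, Slc6a13 at -0.88 and Ptgds at -0.65. Of 10 perineurial genes, the keratin Krt19 (-1.49) and the hedgehog receptor Ptch1 (-1.03) were called higher in EN (median -0.69), while Gli1, the hedgehog target, gave -0.89 and the tight junction gene Cldn1 -0.85. Of 16 endothelial genes 1 was called, also without each replicate, Slco1a4, a transporter of the blood-brain and blood-nerve barriers (-1.20, median -0.42). These lists had list means of 10.76 to 11.36 in AN and 11.43 to 11.93 in EN for the meningeal, 10.69 to 10.98 and 11.28 to 11.60 for the perineurial, and 10.67 to 10.74 and 11.01 to 11.11 for the endothelial genes. When replicate 1, 2 or 3 was left out, 0, 1 and 2 meningeal genes and 1, 1 and 2 perineurial genes were called.

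Among 15 macrophage genes none was called by limma and 14 had an unadjusted p below 0.05 (median -0.42, Csf1r -0.50, Cd163 0.91). Among 7 mast cell genes and 13 blood cell genes none was called, with 1 unadjusted p below 0.05 in each. Over all tested genes, 6354 of 22315 had an unadjusted p below 0.05 in limma. The blood list spread widely between arrays of the same fibre, with means of 11.14 to 12.32 in AN and 10.19 to 12.78 in EN, and S100a8, a neutrophil gene, read 12.77, 12.21 and 12.85 in AN and 9.65, 12.21 and 13.62 in EN. Muscle genes had a median of -0.85, with -1.47, -0.22 and -0.96 in the 3 pairs and list means of 8.45 to 9.82 in AN and 9.47 to 10.17 in EN. Tnnc2, a fast muscle troponin, gave -0.99 (adjusted p = 0.397), and of the 13 muscle genes besides Pvalb none was called. Of 9 adipocyte genes Ucp1, the uncoupling protein of brown fat, was called (-1.17), though its arrays ranged from 6.53 to 10.04 in AN and from 7.47 to 11.41 in EN and overlapped between the fibres, and without replicate 1 its adjusted p was 0.0545. The share of muscle, fat or blood taken along with each root was not tested.

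Programs not tied to 1 cell type had few calls. Of 14 cell cycle genes none was called by limma, 13 had an unadjusted p below 0.05, 9 were higher in AN at an adjusted p below 0.05 at any fold change, and the median was 0.53 (Cdk1 0.66, Mki67 0.59, adjusted p = 0.0378). Of 20 sterol synthesis genes, which supply cholesterol to myelin, none was called and 17 had an unadjusted p below 0.05. Their median was -0.42 (Hmgcs1 -0.29, Msmo1 -0.49), and 15 were lower in AN at an adjusted p below 0.05 and any fold change. Of 22 guidance genes, 4 were higher in AN (median 0.22), the receptor Robo2 (2.67), the plexin Plxna4 (1.59), Slit1 (1.55) and Sema3e (1.09), and Robo1 gave -0.36 and Slit3 0.13. The guidance genes had 1 call without each of the replicates. Of 15 lumbar Hox genes none was called and 3 had an unadjusted p below 0.05 (median 0.02), as 3 of 11 injury and immediate early genes had (median 0.08). Over all tested genes, limma gave an unadjusted p below 0.05 for 6354 of 22315. Fos read 12.92, 13.71 and 10.18 in AN and 11.37, 10.96 and 10.19 in EN (1.43, adjusted p = 0.121), so that the arrays of replicate 3 were low in both fibres.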

How the data were processed

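RNA of AN and EN was hybridised to Agilent SurePrint G3 mouse arrays (8 × 60K), 1 Cy3-labelled sample each, in 8 groups of 3 arrays. The authors deposited log2 values of 56743 probes, quantile normalized per the methods, and for each array the spot intensity and background marks of Feature Extraction 10.7.1.1, per the labels. Gene names and mm9 probe positions are those of the scanner files. Of 56605 gene probes, the 33697 well above background on all 3 AN or all 3 EN arrays at 1 W were tested. Precision is limited by the number of arrays. A signal counted as above background where the scanner marked it so, and the lowest marked log2 value was 3.71 to 5.23, depending on the array. Unmarked signals can lie above that value. Where a fibre had no array above background, a nominal lower bound ("at least N-fold") replaces the fold change. For it, values under the lowest marked value were raised to that value. The adjusted p beside a bound comes from limma on the deposited values, so it does not test the bound. Where only some arrays were marked, values under the lowest marked value also enter the printed difference.

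The 12 AN-EN pairs were fitted with limma 3.58.1 in R 4.3.3, with the pair as a block and 1 AN-EN coefficient per age (8 residual degrees of freedom, 10.07 after moderation), and ages were compared by contrasts. The numbers pair the arrays because AN and EN of the same number share a slide at 1 W and their deviations from the group means correlated in every pair, at 0.40, 0.52 and 0.67 at 1 W (0.14 to 0.67 over all ages), against -0.48 to 0.08 between different numbers at 1 W. A call needed a Benjamini-Hochberg adjusted p below 0.05 over all tested probes and a fold change above 2. The methods give the same 2 thresholds without saying whether p was adjusted. The fit was tested on simulated data.

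Genes were named by a rule: up to 12 called genes with the largest differences and 6 with bounds in each direction, the genes the study discusses, up to 4 of each list, and 16 genes whose difference changed with age. Other members given with values were chosen after their values were seen. The members and the 36 lists (595 genes, 541 tested) were chosen with earlier results of these data known. Promoters came from RefSeq's GRCm38.p6 table, matched by symbol. Some genes that the rule or a list holds are counted but not reported here by name.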

Additional observations from a re-analysis of the deposited data

Results flagged for a closer look

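The contrasts between ages in limma flagged differences between AN and EN that were not the same at 1 W as at another age. By probes, 156 passed against P0, 67 against 3 W and 561 against 5 W.

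Against P0, the AN minus EN difference (log2) at 1 W was shifted toward AN by 4.49 for Cpne4, 3.88 for Adcyap1, 3.71 for Cntnap4, 2.80 for Sybu, 2.25 for Strip2, 2.22 for Grik3, 1.37 for Kcnj10 and 1.20 for Gldn. It was shifted toward EN, with changes of -2.65 for Sds, -2.0 for Car4, -1.89 for Fcgbp, -1.79 for Sptbn5, -1.74 for Slit2, -1.68 for Vwa5b2, -1.53 for Helt, -1.47 for Cdh3, -1.41 for Lctl and -1.21 for Slco1a4.

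Against 3 W, the changes were 4.00 for Sybu, 3.40 for Zdhhc2 and 2.42 for Strip2, and -1.63 for Met, -1.57 for Dab1, -1.52 for Fam196b and -1.17 for Kcna6.

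Against 5 W, they were 4.39 for Uts2b, 4.34 for Sybu, 3.86 for Zdhhc2, 3.39 for Prss56, 2.79 for Strip2 and 1.79 for Piezo2 in the direction of AN. In the direction of EN they were -3.29 for Penk, -2.91 for Sst, -2.65 for Hpcal4, -2.12 for Met, -1.88 for Angptl7, -1.88 for Sds, -1.85 for Kcnj10, -1.34 for Kcna6, -1.25 for Dab1, -1.25 for Fam196b, -1.23 for Ncam1, -1.14 for Slco1a4, -1.13 for Kit and -1.03 for Gjb6.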

How the results depend on the processing

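No named gene reversed under the alternatives that were run for single genes, which leave out the combined omission of the 3 W pair and a replicate. Of 85 called ones, 85 kept their call on scanner signals with quantile or 75th percentile scaling, 81 with the slide as the block, 75 without the block of pairs, 75 of 84 with normexp, 70 with no filter for dim signals, and 22 to 59 without 1 replicate. At 1 W, 1350 probes were called with the pairing as a block, 1021 without it, 837 when all 6 arrays had to be above background, and 223 to 772 without 1 replicate. With the pair of replicate 3 at 3 W left out as well, an omission chosen after the data were seen, the last range was 1146 to 1440. The counts for the change from P0 were 156 with the block of pairs and 22 without it, 73 with the slide, 57 without the filter, 1423 with array weights, 923 without the pair of replicate 3 at 3 W, 1412 at an unadjusted p and 16 to 51 without 1 replicate. Against 3 W, in the same order, they were 67 and 8, 17, 33, 836, 576, 566 and 0 to 13, and against 5 W 561 and 39, 173, 354, 1068, 1044, 1431 and 94 to 135, with 276 under normexp. Leaving out a pair also removes a degree of freedom, and other causes were not tested. The 3 pairs and the detection limits bound what could be seen: genes under background on the EN arrays have a nominal lower bound in place of a fold change.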
